A study of Mus musculus with 25 samples.

Results

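The RNAs of 9 enzymes of hepatic nitrogen and amino acid breakdown were followed in RNA from mouse sperm: Cps1, Otc, Ass1 and Arg1 of the urea cycle, and Hpd, Tat, Tdo2, Hal and Sds of tyrosine, tryptophan, histidine and serine catabolism. They were chosen by symbol, all 9 were found among the 24358 genes of the deposited table, and none had a failed estimate in any condition. The series held 25 libraries in 5 conditions of 5 libraries, all of sperm that swam out of incised cauda epididymides of males 14 weeks old. RNA was read by all-RNA-seq, a protocol that removes ribosomal RNA, fragments the rest and treats the RNA ends so that small and long RNAs enter the same library. C57.CTL.F1 and FVB.CTL.F1 were C57BL/6J and FVB/N males of the first generation, whose mothers received corn oil by mouth. C57.D300.F1 and FVB.D300.F1 were their counterparts, whose mothers received 300 mg/kg/day of the plasticizer di-(2-ethylhexyl) phthalate (DEHP) in corn oil from embryonic day 9 to 19. C57.D300.F2 was the second generation of the exposed C57BL/6J line, bred from exposed F1 males and unexposed females. It had no vehicle counterpart, so generation and ancestral exposure cannot be told apart in it. Where 5 values are listed, they run from C57BL/6J (vehicle F1, DEHP F1, DEHP F2) to FVB/N (vehicle F1, DEHP F1).

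The deposited value was 1 estimated count per gene and condition, which combines 5 libraries and was scaled between libraries by Cuffdiff, together with the variance of that count under Cuffdiff's model. Single libraries were not used here, so the differences below lack a replicate check and carry no p-value. The square root of the model variance (the model SD) is printed as the only error, and it is not the spread between males. A log2 ratio is that of 2 condition counts with 1 added to each, and a gene was called lower or higher at 2 log2 units or more with at least 10 counts in 1 of the conditions compared. The limit of detection was set at 3 counts. The counts summed to 6921688 to 8602900 per condition. The 10 C57BL/6J libraries of the first generation, vehicle and DEHP, came from an earlier study and were re-analysed, and the remaining 15 were newly made. Whenever these re-analysed conditions are set against the other 3 conditions, strain or generation and library set cannot be told apart.

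The liver disposes of ammonia through the urea cycle, which opens in the mitochondria of periportal hepatocytes with carbamoyl phosphate synthetase (Cps1) and ornithine transcarbamylase (Otc) and goes on in the cytosol with argininosuccinate synthetase (Ass1), argininosuccinate lyase (Asl) and arginase (Arg1), which releases urea. The nitrogen comes largely from enzymes that take single amino acids apart. Tyrosine aminotransferase (Tat) and 4-hydroxyphenylpyruvate dioxygenase (Hpd) act in succession on tyrosine, tryptophan dioxygenase (Tdo2) opens the indole ring, histidase (Hal) deaminates histidine, and serine dehydratase (Sds) turns serine into pyruvate. Several of these genes are textbook markers of hepatocytes, while Ass1 is used by many tissues for arginine synthesis and Hal also acts in the epidermis.

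The 9 RNAs were plentiful in both re-analysed C57BL/6J conditions and scarce in the other 3 conditions. Together they held 34603 and 29403 counts in the re-analysed conditions, against 975 in C57.D300.F2 and 371 and 398 in FVB/N without and with DEHP. As shares of all counts these sums were 0.402%, 0.379%, 0.0141%, 0.00490% and 0.00481%. In the last 3 conditions 8, 7 and 6 of the 9 RNAs reached 10 counts, and 1 value, that of Sds in FVB.D300.F1, lay under the limit of detection. In bulk RNA of this kind, fewer cells of a type and less RNA per cell cannot be told apart.

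Among the urea cycle enzymes, Cps1 held most of the counts. It had 20854.5 counts with vehicle and 18397 with DEHP in C57BL/6J F1, 490.0 in the F2, and 131 with vehicle and 82.0 with DEHP in FVB/N. The model SD was 19106 and 17565 in the first pair, close to the counts themselves, and 161, 36.7 and 25.9 in the others. Otc, the X-linked partner of Cps1 in the mitochondrion, had 866, 618, 17.7, 4.54 and 4.20 counts. Both FVB/N values of Otc were under 10 counts, and its model SD there was 3.16 and 2.91. Ass1 had 1857, 998, 107, 53.2 and 128 counts, and was the RNA with the widest model error, with an SD of 1770, 1097, 79.9, 81.5 and 155. The ranges of Ass1 within 1 model SD therefore overlapped between every pair of neighbouring conditions in that order. Arg1, the cytosolic arginase of the liver, had 3196, 2003, 81.4, 22.4 and 18.8 counts, with an SD of 1261, 875, 26.8, 8.72 and 7.49. For Cps1, Otc and Arg1 the order was the same, with C57.CTL.F1 highest and FVB.D300.F1 lowest.

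The enzymes of single amino acids were read as follows. Hpd had 1539, 2084, 53.2, 10.5 and 9.45 counts. Tat, which precedes it on the same route, had 2023, 2026, 98.4, 35.6 and 28.3. Tdo2, the rate-limiting enzyme of the hepatic kynurenine route, had 3589, 2395, 92.8, 44.5 and 34.2. These 3 RNAs were 20.6-fold or more higher in each re-analysed condition than in any newly made one. Hal had 527, 771, 26.5, 66.1 and 91.8 counts, with a model SD of 151, 282, 10.4, 19.1 and 27.5. Its lowest value was in C57.D300.F2, not in an FVB/N condition, which set it apart from the other 8. Sds, the scarcest, had 152, 109.8, 7.89, 3.23 and 0.993 counts, and in the last 3 conditions its model SD of 13.6, 8.77 and 5.57 was larger than the count.

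**Figure D1:**
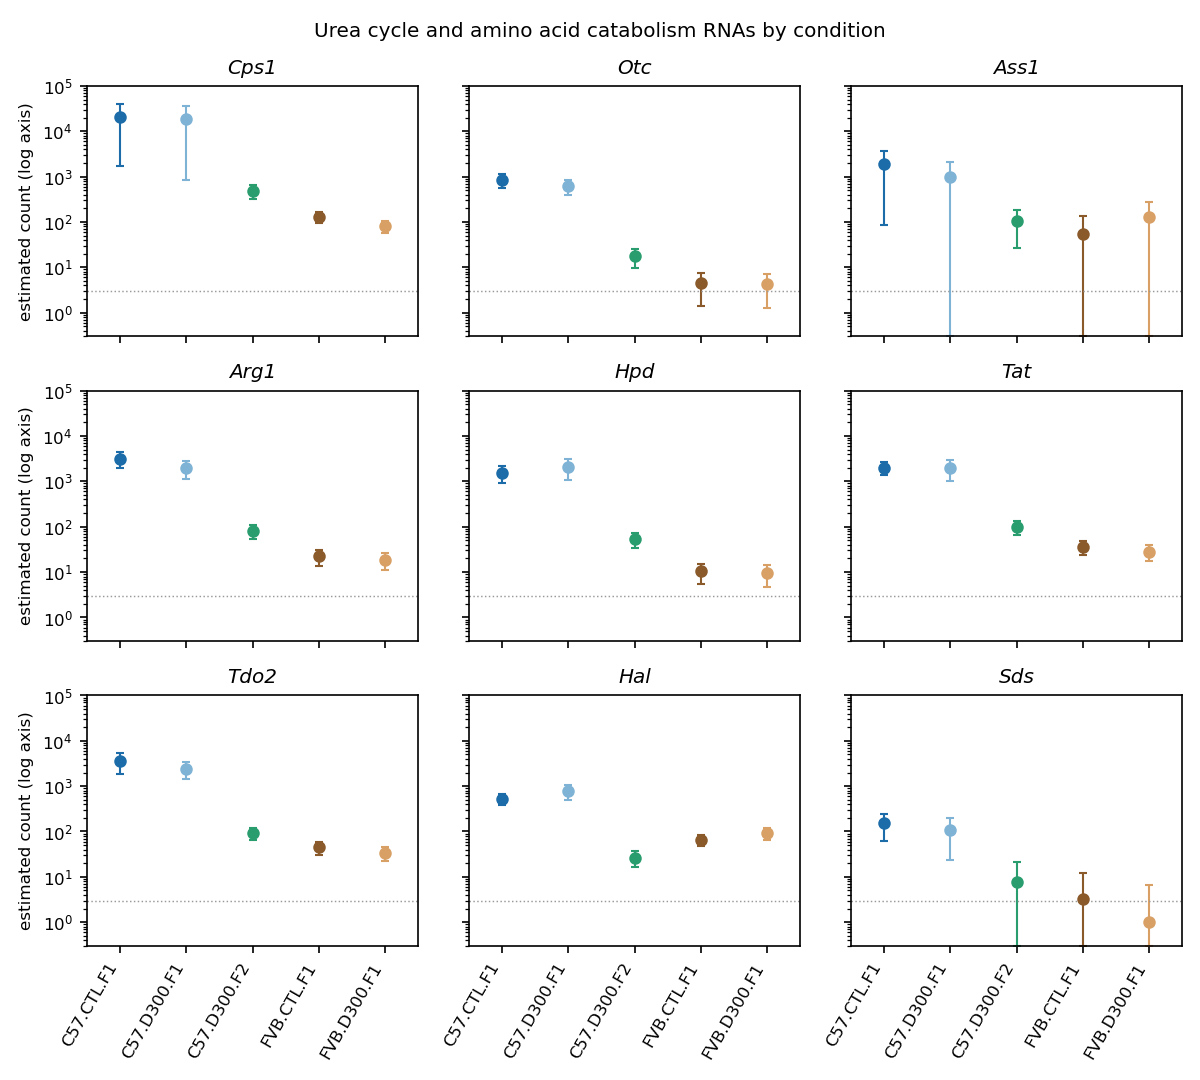
Estimated counts (log axis) of the 9 enzymes in each of the 5 conditions, 1 point per condition combining 5 libraries, with bars of 1 model SD (bars that pass below the axis end at its foot) and a dotted line at 3 counts. All 9 enzymes stand highest in the leftmost pair, the re-analysed C57BL/6J conditions, and Hal alone has its lowest point in C57.D300.F2.

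Divided by the length of the merged exons, the levels in C57.CTL.F1 ran from Cps1 at 3754 counts per kb to Arg1 at 1435, Tdo2 at 925, Tat at 841, Ass1 at 769, Hpd at 723, Otc at 204, Hal at 94.9 and Sds at 89.6. Of the 8 pairs of neighbours in that order, 2 differed by more than their model SD, Hpd over Otc and Otc over Hal. Each of the other 4 conditions had 1 such pair. In FVB.D300.F1 the order was another one, led by Ass1 at 53.0 counts per kb, Hal at 16.5 and Cps1 at 14.8, with Tat at 11.8, Tdo2 at 8.82, Arg1 at 8.45, Hpd at 4.44, Otc at 0.991 and Sds at 0.586. The top of that order rests on Ass1, whose model SD there was 64.2 counts per kb.

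The make-up of the set differed likewise. Cps1 was 60.3%, 62.6%, 50.2%, 35.3% and 20.6% of the summed counts. Hal made up 1.52%, 2.62%, 2.72%, 17.8% and 23.1%. Ass1 was 5.37% and 3.39% in the re-analysed conditions and 14.3% and 32.2% in FVB/N. The counts were also set against that of albumin (Alb), the most abundant RNA of hepatocytes. The count of Cps1 was 25.0%, 18.3%, 19.1%, 25.0% and 23.5% of the Alb count in the 5 conditions. No error was computed for such shares, and the model SD of Cps1 alone was 0.916 and 0.955 times its count in the re-analysed conditions. Arg1 stood at 3.83%, 1.99%, 3.18%, 4.28% and 5.40% of Alb, and Otc at 1.04%, 0.615%, 0.693%, 0.867% and 1.21%. Hal stood at 0.630% and 0.768% in the first pair and 1.04% in C57.D300.F2, but at 12.6% and 26.3% in the FVB/N conditions, and Ass1 went from 2.22% in C57.CTL.F1 to 36.7% in FVB.D300.F1.

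On GRCm38 with the annotation of GENCODE M21, Cps1 spans chr1:67123026-67231259 on the plus strand, Otc chrX:10252305-10321024 (plus), Ass1 chr2:31470207-31520672 (plus), Arg1 chr10:24915221-24927484 (minus) and Hpd chr5:123171807-123182727 (minus). Tat spans chr8:109990437-109999803 (plus), Tdo2 chr3:81957090-81976202 (minus), Hal chr10:93488768-93519304 (plus) and Sds chr5:120476526-120483932 (plus). Hpd overlaps Gm26745 on its own strand and Psmd9 on the other, and Sds overlaps Plbd2 and Gm15690 on the other strand. Reads were mapped with a strand setting, but the counts of Sds and Hpd could still hold reads of these neighbours. Plbd2 had 351 to 519 counts and Psmd9 213 to 366 over the 5 conditions.

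Promoters are shown for Hal, Otc and Tat because these genes were low together in C57.D300.F2 while Hal parted from the others in FVB/N, and because no annotated exon covers their window. RefSeq promoter windows were found for 6 of the 9 members (Ass1, Hal, Hpd, Otc, Tat and Tdo2). Each sequence is the 250 bases before the start of the gene on GRCm38.p6, on the plus strand: chr10:93488518-93488767 for Hal, chrX:10252055-10252304 for Otc and chr8:109990186-109990435 for Tat. Capitals mark a TATA box (TATAAA) or a CCAAT box (CCAAT), on either strand.
Hal: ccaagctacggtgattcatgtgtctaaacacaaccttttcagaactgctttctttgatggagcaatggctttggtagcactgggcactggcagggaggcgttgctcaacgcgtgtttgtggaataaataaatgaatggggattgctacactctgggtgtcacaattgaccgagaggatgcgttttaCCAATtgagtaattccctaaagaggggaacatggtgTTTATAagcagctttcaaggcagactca
Otc: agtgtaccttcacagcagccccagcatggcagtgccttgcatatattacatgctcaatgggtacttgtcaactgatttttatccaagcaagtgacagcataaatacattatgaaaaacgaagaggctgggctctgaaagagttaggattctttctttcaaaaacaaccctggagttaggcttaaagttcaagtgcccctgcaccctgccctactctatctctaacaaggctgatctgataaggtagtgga
Tat: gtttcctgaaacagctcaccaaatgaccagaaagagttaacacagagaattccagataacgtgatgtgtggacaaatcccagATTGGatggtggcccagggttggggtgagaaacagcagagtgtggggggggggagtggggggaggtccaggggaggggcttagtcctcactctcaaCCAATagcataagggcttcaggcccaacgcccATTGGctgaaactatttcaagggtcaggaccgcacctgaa
Hal held a CCAAT box 64 bases before the start and a TATA box, read on the other strand, 28 bases before it. Tat held 3 CCAAT boxes, 168, 72 and 40 bases before the start, and Otc held none of the motifs searched. Over all 6 promoters, 3 had CCAAT (Hal, Tat and Tdo2), against 33.8% of 32851 promoters of the same length, and 2 had TATAAA (Hal and Tdo2), against 12.4%. Further motifs were searched on both strands, and none overlaps another in these windows. TGTTTGC, a variant FOXA site, was in Tdo2 and in 4.3% of all promoters. GTTAAT (an HNF1 motif, 6.43% of all promoters), TGTTTAC (a FOXA site, 3.17%), CAAAGTCCA (an HNF4 direct repeat, 0.384%) and TGTTCT (a glucocorticoid receptor motif, 16.1%) were in none of the 6 windows. The G and C content was 43.6% to 53.6% in Hal, Otc and Tat and 75.6% in Ass1.

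Prenatal DEHP was compared with vehicle within C57BL/6J, where both conditions came from the same set of libraries. None of the 9 enzymes was called, and their differences ran in both directions. The log2 ratio of DEHP to vehicle was -0.90 for Ass1, -0.67 for Arg1, -0.58 for Tdo2, -0.49 for Otc, -0.46 for Sds and -0.18 for Cps1. It was 0.00 for Tat, 0.44 for Hpd and 0.55 for Hal. In all, 6 of 9 were below 0, the median was -0.46, and no difference exceeded its model SD, as 6.57% of all genes tested did. The value of Tat was 0.15 under scaling to equal totals and -0.04 with median-of-ratios factors. Among 16825 genes, 0.256% were called lower and 0.0357% higher, with a median of -0.01. The model SD of the log2 ratio was 1.91 for Cps1 and 2.10 for Ass1, so for these a difference of 2 log2 units would hardly have stood out, while it was 0.71 for Otc.

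Genes that mark the zones of the liver lobule were read beside them, because most of the 9 enzymes are periportal. The 9 periportal genes, 6 of which are members, had a median log2 ratio of -0.46 and 7 of them were below 0. The 7 pericentral genes had a median of 0.45 and 1 of them was below 0. Of all 16825 genes tested, 8694 were below 0. Cyp2e1, a pericentral cytochrome P450, went from 8452 counts with vehicle to 14060 with DEHP, and Cyp1a2 from 588 to 1247. Pck1, the periportal enzyme of gluconeogenesis, had 4529 and 2727. Hal and Gls2, also periportal, went the other way, at log2 ratios of 0.55 and 0.28. No gene of either list was called. Only 1 of them, Cyp1a2, had a difference beyond its model SD, and those of Cyp2e1 and Pck1 lay within theirs. The 7 hepatocyte markers had a median of -0.40.

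In FVB/N, 7 of the 9 enzymes reached 10 counts in 1 condition, and none was called between DEHP and vehicle. Of 16471 genes, 0.0182% were called lower and 0.662% higher. The log2 ratio was -0.67 for Cps1, -0.37 for Tdo2, -0.32 for Tat, -0.24 for Arg1, -0.13 for Hpd, 0.47 for Hal and 1.25 for Ass1, with a median of -0.24. Cps1 was the only one of the 7 whose difference, -49.0 counts, exceeded its model SD, 45.0 counts, as 5.65% of all genes tested did. Ass1 was 2.41-fold higher in FVB.D300.F1, a difference of 74.9 counts with a model SD of 175. At 1 log2 unit Ass1 would be called higher, as 2.16% of genes would, and none of the 7 lower, as 0.619% would. The 7 hepatocyte markers had a median log2 ratio of -0.59 in the same comparison, 6 of them were below 0, and the difference of 4 exceeded its model SD. The part of hepatocyte RNA in the value of Cps1 was not tested.

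The strain by exposure interaction is the log2 ratio to vehicle in FVB/N minus that in C57BL/6J. Its median over the 9 enzymes was -0.08, and 1 of the 9, Ass1 at 2.15, passed 2 log2 units, with a model SD of 3.48. None of the 9 exceeded its model SD, as 6.97% of genes did. Of 17556 genes, 0.997% lay as far above 0 and 0.228% as far below. The other 8 values lay between -0.62 (Sds) and 0.43 (Arg1).

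The second generation of the DEHP line was set against the vehicle condition of the same strain. Relative to C57.CTL.F1 all 9 enzymes were called lower in C57.D300.F2, as were 3.61% of 17114 genes, while 0.584% were called higher. The enzymes had a median log2 ratio of -4.83, beside -0.04 over all genes tested. Otc was 48.8-fold lower, Cps1 42.6-fold, Arg1 39.3-fold, Tdo2 38.7-fold, Hpd 28.9-fold, Tat 20.6-fold, Hal 19.9-fold, Sds 19.2-fold and Ass1 17.3-fold. The difference exceeded its model SD for 8 of the 9, not for Ass1, and for 26.9% of all genes tested. The study names Cps1 and Hpd among RNAs it picked from these same libraries by comparing all conditions in pairs, and it assigned both to a generational pattern. Their calls here and in the other comparisons are therefore not independent of its choice.

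Against C57.D300.F1, the exposed first generation of the same line, all 9 were again called lower in C57.D300.F2, where 3.3% of 17133 genes were called lower and 0.333% higher. The median log2 ratio was -4.67, from -5.26 for Hpd to -3.21 for Ass1, and again 8 of 9 differences, not that of Ass1, exceeded the model SD, beside 22.2% of genes. Hpd was 39.1-fold lower here, Cps1 37.5-fold, Otc 34.9-fold and Hal 29.1-fold. Both comparisons share C57.D300.F2, so they are not separate pieces of evidence. Both also set newly made libraries against re-analysed ones.

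FVB/N was set against C57BL/6J within each exposure. Without DEHP all 9 enzymes were called lower in FVB/N, where 8.88% of 17086 genes were called lower and 1.44% higher. All 9 differences exceeded the model SD, beside 41.2% of genes. Their median log2 ratio was -6.30, beside -0.03 over all genes tested. Otc was 191-fold lower, Cps1 159-fold, Hpd 147-fold, Arg1 142-fold, Tdo2 80.7-fold, Tat 56.8-fold, Sds 47.1-fold and Ass1 34.9-fold. Hal was 7.97-fold lower, the smallest of the 9 differences. This comparison uses the same C57.CTL.F1 counts as the comparison of generations. Cps1 and Hpd were picked by the study over all conditions, so their calls between strains, without or with DEHP, are not independent of that choice.

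With DEHP in both strains, all 9 were called lower in FVB.D300.F1 than in C57.D300.F1, where 7.67% of 17377 genes were called lower and 2.65% higher. The median of the 9 was -6.11, and 8 of the differences exceeded the model SD, beside 47.2% of genes. Cps1 was 224-fold lower, Hpd 220.5-fold, Otc 147-fold, Arg1 106-fold, Tat 71.6-fold and Tdo2 69.98-fold. Hal was 8.40-fold and Ass1 7.79-fold lower, and the difference of Ass1 did not exceed its model SD. Sds is given no fold, since its FVB.D300.F1 value was under the limit of detection.

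**Figure D2:**
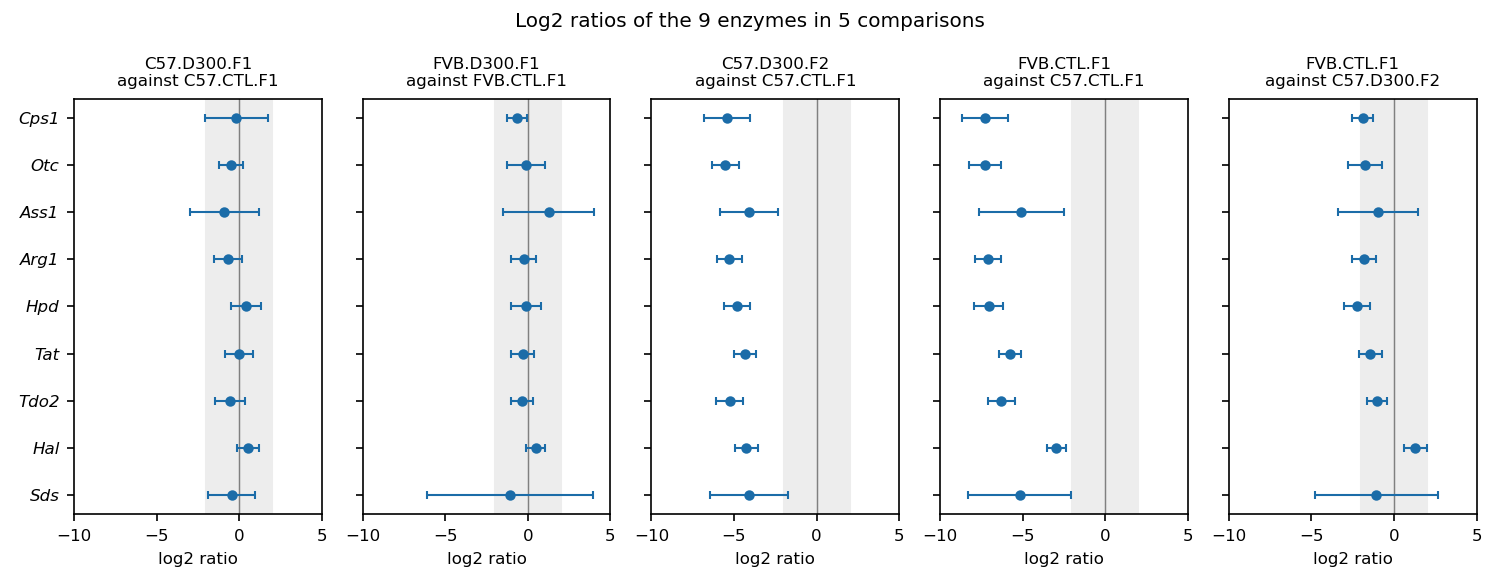
Log2 ratios (1 added to each count) of the 9 enzymes in 5 comparisons, with bars of 1 model SD of the log2 ratio and a grey band between -2 and 2. The points of both DEHP comparisons lie within the band, those of C57.D300.F2 or FVB.CTL.F1 against C57.CTL.F1 all lie below it, and Hal is the one point above 0 in the last panel.

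The newly made libraries allow the strains to be compared within 1 library set, though generation and exposure then differ as well. Of the 8 enzymes with 10 counts in 1 of FVB.CTL.F1 and C57.D300.F2, 7 were below 0 and 1, Hpd, was called lower, at 5.08-fold. None was called higher. Among 16969 genes, 2.5% were called lower and 0.707% higher. The median log2 ratio was -1.60, with -1.90 for Cps1, -1.81 for Arg1, -1.76 for Otc, -1.44 for Tat and -1.04 for Tdo2. Ass1 was 2.02-fold lower, within its model SD, and the other 7 differences exceeded theirs, as 29.2% of genes did. At 1 log2 unit, 6 of the 8 would be called lower and 1 higher, beside 11.6% and 4.2% of genes. Hal went the other way, 2.49-fold higher in FVB.CTL.F1, a difference of 39.6 counts with a model SD of 21.7.

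In FVB.D300.F1 against C57.D300.F2, 3 of the 8 were called lower, namely Cps1 at 5.98-fold, Hpd at 5.63-fold and Arg1 at 4.32-fold, and none higher. Of 17122 genes, 2.02% were called lower and 1.58% higher. The median was -1.80, and Hal was again higher, 3.47-fold, by 65.3 counts with a model SD of 29.4. Ass1 had a log2 ratio of 0.25, which equal totals took to 0. Of the 8 differences 7, all other than that of Ass1, exceeded the model SD, beside 32.1% of genes. At 1 log2 unit, 6 would be called lower and 1 higher, beside 10.6% and 6.98% of genes. These 2 comparisons share C57.D300.F2. The medians here, -1.60 and -1.80, cover 8 enzymes and set first-generation FVB/N against second-generation C57BL/6J males. Those across the library sets, -6.30 and -6.11, cover 9 enzymes and set first generation against first generation. Library set, generation and exposure differ between these 2 pairs of medians and cannot be told apart.

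Hepatocyte markers moved with the enzymes across the conditions. The 7 markers (Alb, Ttr, Apoa1, Apoa2, Fgb, Serpina1b and Cyp2e1) summed to 177879, 163713, 4590, 1122 and 806 counts, and each of them reached 10 counts in every condition. Against C57.CTL.F1 all 7 were called lower in C57.D300.F2, at a median of -5.70 on the log2 scale, and in FVB.CTL.F1, at -7.31. Of all genes tested, 3.61% and 8.88% were called lower in these comparisons. In each, 4 of the 7 differences exceeded the model SD, beside 26.9% and 41.2% of genes. Those of Alb, Ttr and Apoa2 did not in either. Alb, Apoa1, Apoa2, Fgb and Serpina1b were also picked by the study from these libraries over all conditions and assigned to its generational pattern. Their calls in both comparisons are therefore not independent of that choice. Ttr and Cyp2e1 are not among the RNAs it picked, and their log2 ratios for C57.D300.F2 were -6.62 and -3.79. Within the newly made libraries the median of the 7 markers was -1.95 for FVB.CTL.F1 and -2.58 for FVB.D300.F1 against C57.D300.F2. The part of these markers in the differences of the enzymes was not tested.

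The labelled cells were present in every condition. The 7 markers of sperm and late germ cells (Prm1, Prm2, Tnp1, Tnp2, Odf1, Smcp and Akap4) each reached at least 172 counts, and summed to 82338, 69030, 27478, 6735 and 7993 counts. Set against C57.CTL.F1, the median of their log2 ratios was -1.05 in C57.D300.F2, with 0 of 7 called, and -3.03 in FVB.CTL.F1, with 7 of 7 called lower. Of all genes tested, 3.61% and 8.88% were called lower there. Their part in the results on the enzymes was likewise not tested.

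Other organs use some of these enzymes too. Of the 5 kidney tubule markers, 3 to 5 were at or under 3 counts in each condition, and the list summed to 6.58 to 22.7 counts. The 5 enterocyte markers summed to 391, 162, 42.5, 33.8 and 35.5, with Sis at or under 3 counts throughout. Most of that sum in C57.CTL.F1 was Fabp2 (181 counts) and Apoa4 (183 counts). The 5 macrophage and leukocyte markers summed to 5319, 6060, 2761, 1491 and 1751, with none at the limit of detection, and the 5 epididymal markers to between 24151 and 87616, with 2, 1, 2, 1 and 0 of them at or under 3 counts. Lcn5, Lcn8, Gpx5 and Spag11b of that list are among RNAs the study picked from these libraries. Adam7, also of that list, held 23918 of the 24151 counts in C57.CTL.F1. The sum of 87616 was that of FVB.D300.F1, where Gpx5 had 24121 counts, against 202 in C57.CTL.F1. The 5 keratinocyte markers, of interest for Hal, summed to 227, 173, 237, 336 and 353. Krt5 had 129, 112, 156, 214 and 225 counts, while Lor and Krt1 stayed at or near the limit of detection. Whether these cells bear on the values of Hal was not tested.

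The neighbouring steps of the same pathways were read in 61 further genes in 8 lists, of which Tdh stayed at or under the limit of detection in every condition. For C57.D300.F2 against C57BL/6J vehicle, 33 of 60 were called lower, none higher and 58 were below 0, with a median of -2.33. Over all genes tested, 3.61% were called lower and 9111 of 17114 were below 0. Haao and Bhmt, which are in these lists, were picked by the study from the same libraries in the same way as Cps1 and Hpd. In the strain comparison without DEHP, 32 of 60 were called lower, with a median of -2.10, and in that with DEHP 30 of 60, with a median of -1.93. Of all genes tested, 8.88% and 7.67% were called lower in these 2 comparisons. No gene of these lists was called between DEHP and vehicle, of 60 tested in C57BL/6J and 53 in FVB/N. Among all genes tested, 0.256% were called lower and 0.0357% higher in C57BL/6J, and 0.0182% and 0.662% in FVB/N. Within the newly made libraries, 2 of 57 were called between FVB.CTL.F1 and C57.D300.F2, with a median of -0.08.

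The lists differed in how many of their genes were called lower in C57.D300.F2 than in the C57BL/6J vehicle condition. For tryptophan and kynurenine it was 6 of 7, with a median of -3.92. Haao, which makes the precursor of quinolinate, had 1299, 18.7 and 8.50 counts (C57BL/6J vehicle, C57BL/6J F2 and FVB/N vehicle, an order kept in the triplets that follow), and Kmo had 593, 29.0 and 11.2. The exception was Afmid, the formamidase after Tdo2, with 395, 159 and 186. For histidine it was all 3 genes downstream of Hal, with a median of -3.94. Uroc1, the urocanase, had 634, 40.3 and 19.2 counts. Ftcd, which passes the one-carbon unit to folate, had 448, 87.6 and 198, and like Hal it was higher in FVB.CTL.F1 than in C57.D300.F2. Uroc1 and Amdhd1 went the other way there, at log2 ratios of -1.03 and -0.22. Over the 8 lists 29 of 57 genes were below 0 in that comparison, so a higher value was not particular to histidine.

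For phenylalanine and tyrosine it was 5 of 6, with a median of -3.34. Hgd, which follows Hpd, had 793, 34.7 and 6.69 counts. Gstz1 differed less, with 966, 210 and 227, and the exception was Qdpr, with 596, 217 and 158. For serine, glycine and threonine it was 7 of 10, with a median of -3.52. Gnmt, the glycine methyltransferase of the liver, had 2046, 158 and 142 counts and Sardh had 1990, 123 and 86.2. The glycine cleavage system did not share this. Its decarboxylase Gldc had 1126, 1367 and 2069 counts, Amt 383, 311 and 311, and Gcsh 365, 298 and 341.

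For methionine and sulphur it was 4 of 8, with a median of -2.13. Bhmt, which remethylates homocysteine with betaine, had 8405, 121 and 47.8 counts, whereas Cbs, which commits homocysteine to cysteine synthesis, had 3076, 2518 and 2165. For urea cycle and ammonia it was 5 of 11, with a median of -1.97. Asl, the one cycle enzyme outside the 9, had 967, 379 and 436 counts and was not called. Glul, the glutamine synthetase of the pericentral hepatocyte and many other cells, had 4589, 3331 and 2241. For branched-chain amino acids, lysine and proline it was 2 of 10, with a median of -0.79, and for the aminotransferases 1 of 5, with a median of -0.70. Got2, the mitochondrial aspartate aminotransferase, had 2502, 3100 and 2942 counts.

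**Figure D3:**
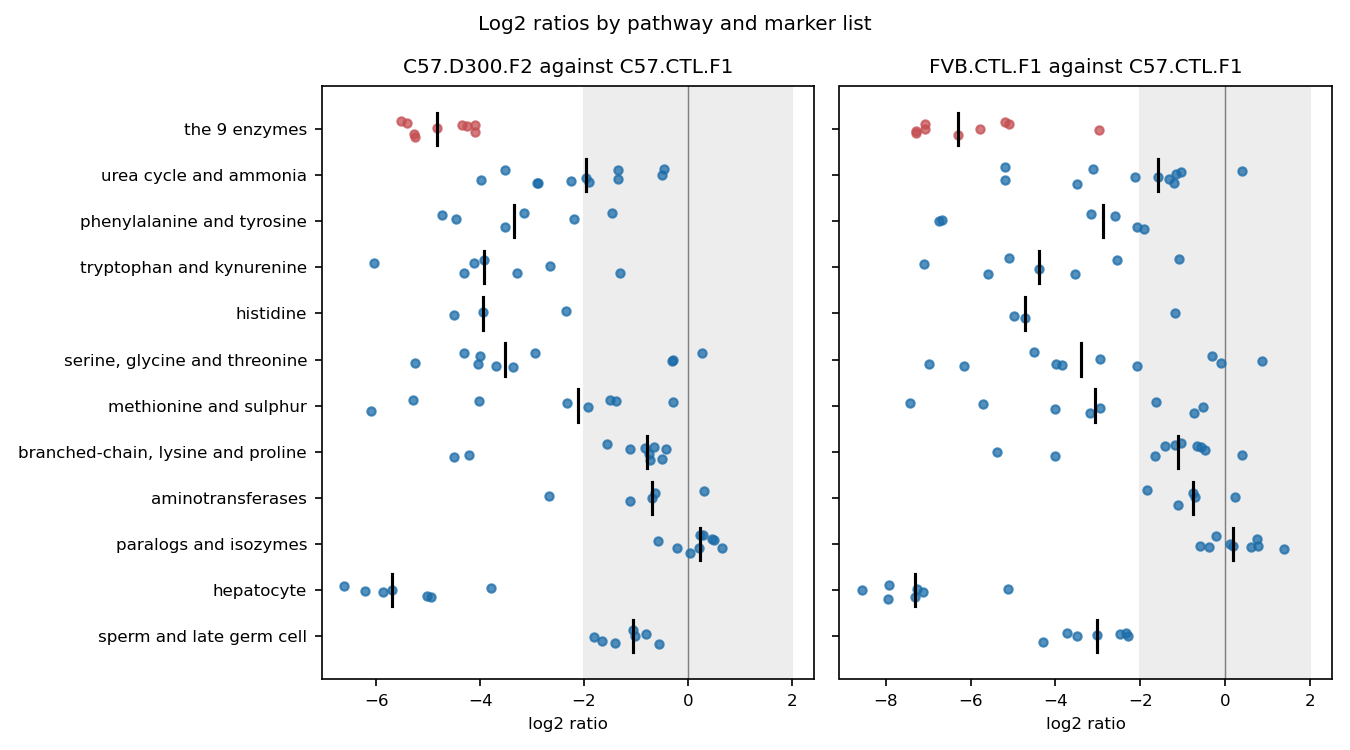
Log2 ratios of each gene (points) in the 9 enzymes, the 8 pathway lists, the paralogs, the hepatocyte markers and the sperm and late germ cell markers, in 2 comparisons, with a black bar at each median and a grey band between -2 and 2. The enzymes lie with the hepatocyte markers at the left, while the paralogs lie within the band, at a median of 0.23 and 0.20.

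Several of the 9 enzymes have a paralog or an enzyme of like reaction that other cells use. Over 9 such genes the median log2 ratio was 0.23 in C57.D300.F2 and 0.20 in FVB.CTL.F1, each against C57BL/6J vehicle, with none called in either. Among all genes tested, 3.61% and 8.88% were called lower there, and 0.584% and 1.44% higher. Cad, which carries the carbamoyl phosphate synthetase of pyrimidine synthesis, had 1593, 1423, 1945, 2671 and 2719 counts over the 5 conditions, where Cps1 went from 20854.5 to 82.0. Per kb, Cps1 was 19.3 and 19.0 times the level of Cad in the re-analysed conditions and 0.371, 0.0722 and 0.0444 times in the newly made ones.

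Arg2, the mitochondrial arginase of kidney and other tissues, had 254, 205, 354, 672 and 398 counts. Arg1 stood at 8.06, 6.26, 0.148, 0.0214 and 0.0304 times the level of Arg2 per kb. Ido1, the inducible enzyme for the reaction that Tdo2 carries out in liver, had 487, 509.5, 771, 836 and 1101 counts, and Ido2 had 127, 161, 84.2, 146 and 159. Tdo2 stood at 3.46, 2.21, 0.0566, 0.0250 and 0.0146 times Ido1 per kb. Hpdl, a relative of Hpd, had 326, 317, 461, 281 and 266 counts, and Hpd stood at 4.00, 5.58, 0.0980, 0.0315 and 0.0301 times its level. Sdsl, a relative of Sds, had 14.6, 8.52, 12.4, 9.36 and 10.5 counts, so it was near the 10 counts needed for a call throughout. Tdo2 was 1.03 times Ido2 per kb in C57.D300.F2. In each of the 5 other pairs the liver form was the higher per kb in both re-analysed conditions and the lower in the 3 newly made ones.

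**Figure D4:**
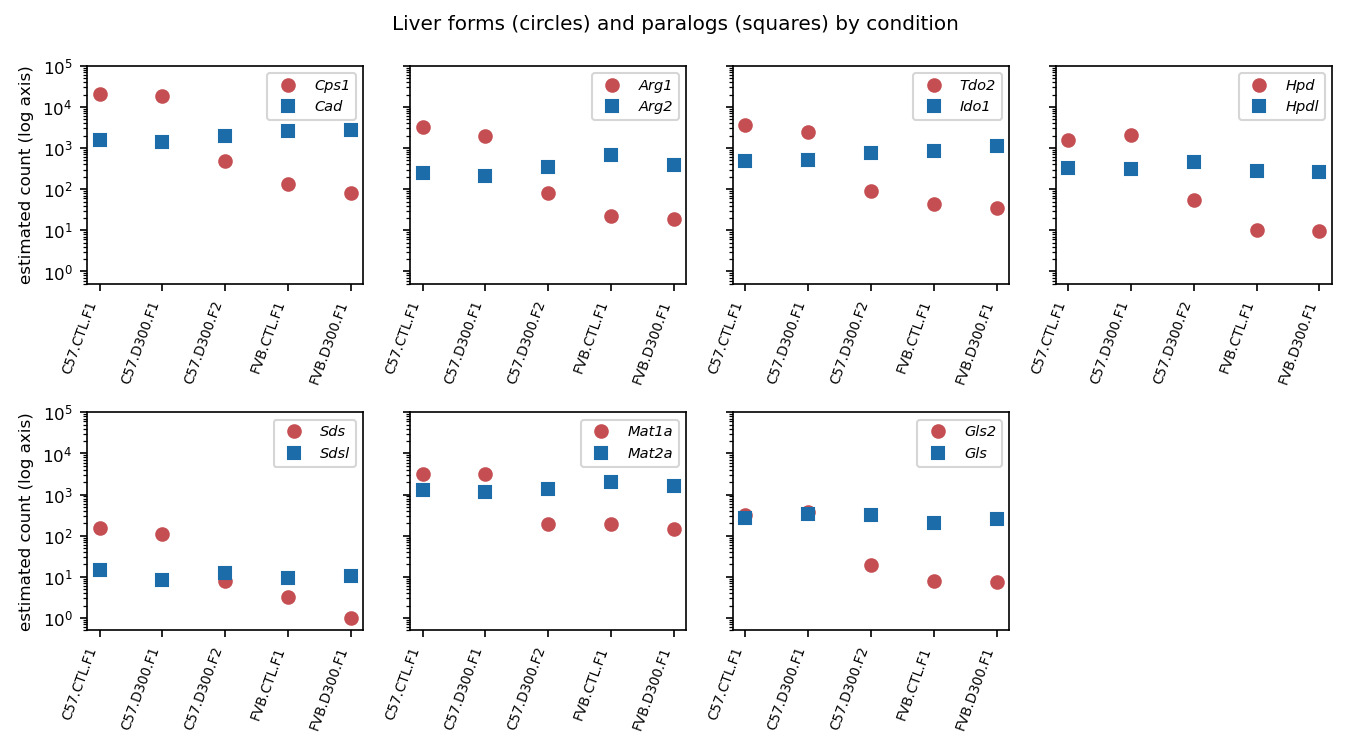
Estimated counts (log axis) of 7 liver forms (circles) and their paralogs (squares) in the 5 conditions, 1 point per condition combining 5 libraries. The circles drop between C57.D300.F1 and C57.D300.F2 in every panel, as for Arg1 from 2003 to 81.4, and the squares vary less, as for Arg2 between 205 and 672.

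The split of the lobule zones was as follows for the F2 against C57BL/6J vehicle. Of the 9 periportal genes 8 were called lower, with a median of -4.26 and Asl as the exception. Of all genes tested, 3.61% were called lower in this comparison. Of the 7 pericentral genes 3 were called lower (Cyp2e1, Cyp1a2 and the glutamate transporter Slc1a2), with a median of -1.34. Glul, Oat, Rhbg and Lgr5 were not called, and Lgr5 and Rhbg had no more than 33.2 counts in either condition. Pck1 had 4529, 2727, 139.6, 45.6 and 46.1 counts over the 5 conditions.

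The genes whose profile was most like the mean of the 9 enzymes were found among 11135 genes with at least 100 counts in 1 condition, by the Euclidean distance between their 4 log2 ratios to C57.CTL.F1. The mean profile was -0.25 and -4.79 in the DEHP line of C57BL/6J (F1 and F2) and -6.01 and -6.14 in FVB/N (vehicle and DEHP). The nearest were Ugt2b34 at a distance of 0.26, Serpind1 at 0.30, Igfbp1 and Masp2 at 0.32 and Ttpa at 0.33. Ugt2b34 had 714, 616, 22.6, 8.52 and 8.97 counts, and Serpind1, which encodes a plasma inhibitor of thrombin, had 1549, 1425, 59.8, 22.6 and 17.6. Of the enzymes themselves Tat was nearest to their mean, at 0.56, followed by Tdo2 at 0.83 and Sds at 1.11. Hpd stood at 1.65, Arg1 at 1.73, Otc at 1.94 and Cps1 at 2.33. Ass1 at 2.64 and Hal at 4.83 were the farthest.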

How the data were processed

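RNA of cauda epididymal sperm from 25 libraries in 5 conditions was sequenced. Per the labels and the study's methods, adapters were clipped, reads of at least 18 bases were kept and mapped to mm10 with TopHat using a second-strand setting, and Cuffdiff quantified the genes. Base calls were made with CASAVA 1.8.2, per the submitters' processing notes. The annotation release, the versions of TopHat and Cuffdiff and the Cuffdiff options are not given in the sources used here. The authors deposited, as a signal, 1 estimated count per gene and condition over 5 libraries, scaled between libraries, and, in a second column, the model variance that Cuffdiff gave it. In all, 10 columns were used. Because of the scaling, each value is relative to the other RNA of its condition.

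Here log2 ratios were computed with 1 added to each count, for genes that reached 10 counts in a compared condition, and called at 2 log2 units. Genes with a failed estimate in a condition (71 genes in any) were missing there. With 1 value per condition no test was run, and the smallest count read as detected was above 3, which covers counting error only. Depth, given as the sum of counts per condition, limits mainly Sds and Otc. The model SD of a difference treats conditions as independent. Lengths and positions are those of GENCODE M21 on GRCm38 and promoters those of RefSeq on GRCm38.p6. Scripts ran in Python 3.11.15 (numpy 2.4.6, pandas 2.3.3, matplotlib 3.10.9), and the steps were tested on simulated data. The members, the pathway and marker lists, the contrasts and the alternatives were chosen with earlier results of these data known. The genes named are the 9 members, the paralogs, the 5 genes nearest to the mean profile, and at most 4 genes of each list. Those of the lists had the most counts in C57.CTL.F1 or went against the list's direction. To these a few were added after their values were seen, namely Kmo, Hgd, Amt, Gcsh, Ftcd, Afmid, Gstz1, Qdpr and Amdhd1. The values of 1 other gene of these lists are not reported here. The alternatives were 3 other scalings, a pseudocount of 0.1 or 10, a minimum of 100 counts or no minimum, calls at 1 log2 unit, and calls that also required a difference beyond the model SD.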

Additional observations from a re-analysis of the deposited data

How the results depend on the processing

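In the 4 comparisons of newly made with re-analysed conditions, all 9 enzymes were called lower under each alternative other than the model SD, which left 8 in each but FVB.CTL.F1 with C57.CTL.F1, where it left 9. Of 126 recomputed counts and medians of the 9 enzymes, 115 stayed within 1.5 times the count or 1 model SD of the median, 11 moved and 0 changed direction. Of 405 recomputed ratios of single enzymes, 403 stayed within 1 model SD, and Otc moved with a pseudocount of 10, to -5.91 between the strains without DEHP and -5.47 with it. Between DEHP and vehicle no enzyme was called under any alternative in C57BL/6J, and in FVB/N 1 was, at a threshold of 1 log2 unit. For FVB.CTL.F1 against C57.D300.F2, 1 called enzyme became 2 with equal totals, 0 with a pseudocount of 10, 0 with a minimum of 100 counts and 7 at 1 log2 unit. For FVB.D300.F1 against C57.D300.F2, 3 became 5, 1, 1 and 7 in the same order. For the interaction, 1 became 0 with equal totals and 0 with the model SD required. A minimum of 100 counts leaves 2 enzymes in both comparisons with C57.D300.F2. The other causes were not tested. Scaling to equal totals moved the median of all genes by up to 0.31 and scaling by the upper quartile by up to 0.22 log2 units, both for C57.D300.F2 against C57.CTL.F1.

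No paired analysis was possible because the table used gives 1 value per condition and carries no replicate numbers. For the same reason no library was left out in turn. Counts under 10 limit Sds and Otc in FVB/N and Sds in C57.D300.F2.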
